A study of Mus musculus with 6 samples.

Results

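Cytochrome P450 (Cyp) genes encode haem enzymes of the liver, and the splicing of their transcripts was compared between hepatocytes of mice on a low-fat and on a high-fat diet. The members were all genes whose name is Cyp followed by a digit in the splicing tables of either diet. They numbered 52 of 7182 genes, of which 51 were listed on the low-fat diet, 48 on the high-fat diet and 47 on both. The GENCODE M21 annotation holds 131 genes of that name, so the members are the Cyp genes with measurable splicing variation in these cells and not the whole superfamily.

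The animals were male C57BL/6J mice raised on chow with 13.5% fat until the age of 8 weeks. They then ate either a low-fat diet with 10% fat (LFD) or a high-fat diet with 60% fat (HFD) for 12 weeks, after which hepatocytes were isolated. Polyadenylated RNA was sequenced as stranded paired-end libraries, 3 per diet. The tables hold 1 pooled value per diet, so no spread between animals can be given. All 11 hepatocyte markers had measured splicing, against 2 of 8 macrophage, 2 of 7 endothelial, 2 of 6 stellate cell and 1 of 5 bile duct markers. Among the 11 are Cyp2e1 and Cyp3a11, which are members and so had measured splicing by definition. Being listed also depends on the splicing of a gene and not on its expression alone.

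P450 enzymes insert an oxygen atom into their substrates with electrons that reach them from a reductase or a ferredoxin. Families 1 to 3 mainly oxidise drugs, toxins and steroids, family 4 hydroxylates fatty acids and eicosanoids, and single members build or break down bile acids, sterols, vitamin D and retinoids. Many of the mouse genes lie in clusters of recent copies, and the copies share their exon structure. Alternative splicing of such a gene can leave out part of the enzyme or shift the reading frame.

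The unit of measurement was the local splicing variation (LSV), a single exon together with all junctions and retained introns that leave or reach it on one side. Each of these entries has a PSI, the share of the LSV's reads that use it, from a floor of 0.0125 to a ceiling of 0.9875 in these tables. The ± values are posterior SDs. They cover the sampling of reads in the pooled libraries and not the variation between mice. At the floor and ceiling they become very small. Because a junction joins 2 exons it often appears in 2 LSVs, and where a diet has 2 values for a junction or intron they are from these.

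Before the values, the sequences that carry the main patterns are shown, all from the GENCODE M21 transcripts (GRCm38) in the direction of transcription. Exon 5 of 4 genes of family 2 is shown because the same exon was skipped in each. It lies within the coding sequence and is 177 nt long in all 4, a whole number of codons. Capitals mark the bases identical in all 4. The exon lies at chr15:82404428-82404604 (minus strand) in Cyp2d10, at chr19:40070168-40070344 (minus strand) in Cyp2c54, at chr4:96641272-96641448 (minus strand) in Cyp2j5 and at chr19:39309655-39309831 (plus strand) in Cyp2c29.
Cyp2d10: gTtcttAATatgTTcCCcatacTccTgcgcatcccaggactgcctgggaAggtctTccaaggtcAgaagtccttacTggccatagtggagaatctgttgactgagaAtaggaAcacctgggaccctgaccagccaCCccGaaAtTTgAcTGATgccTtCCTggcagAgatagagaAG
Cyp2c54: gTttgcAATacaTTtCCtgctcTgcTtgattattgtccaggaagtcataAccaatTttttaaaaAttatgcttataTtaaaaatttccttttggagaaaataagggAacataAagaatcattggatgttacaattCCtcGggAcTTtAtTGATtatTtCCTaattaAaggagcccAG
Cyp2j5: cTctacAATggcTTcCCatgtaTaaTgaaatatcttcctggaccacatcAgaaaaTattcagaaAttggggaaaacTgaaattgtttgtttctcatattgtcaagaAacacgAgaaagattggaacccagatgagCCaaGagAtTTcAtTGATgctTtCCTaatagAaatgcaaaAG
Cyp2c29: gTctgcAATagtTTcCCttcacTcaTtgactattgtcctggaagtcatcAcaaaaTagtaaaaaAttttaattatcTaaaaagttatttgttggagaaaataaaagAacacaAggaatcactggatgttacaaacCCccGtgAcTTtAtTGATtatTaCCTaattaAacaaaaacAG
Of the 177 positions, 34 (19.2%) were identical in the 4 genes. Cyp2c54 and Cyp2c29 were alike at 76.8% of positions, and Cyp2d10 and Cyp2c29 at 32.8%.

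The first 40 nt of exon 4 are shown for 4 genes of the Cyp2c cluster because an alternative acceptor lies in them. Capitals mark bases 29 and 30, the last of a 30-nt segment that the alternative acceptor leaves out. The stretch lies at chr19:39735698-39735737 in Cyp2c68, chr19:39639978-39640017 in Cyp2c67, chr19:39803891-39803930 in Cyp2c40 (these 3 on the minus strand) and chr19:39307608-39307647 (plus strand) in Cyp2c29.
Cyp2c68: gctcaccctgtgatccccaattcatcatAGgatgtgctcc
Cyp2c67: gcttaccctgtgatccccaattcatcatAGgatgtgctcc
Cyp2c40: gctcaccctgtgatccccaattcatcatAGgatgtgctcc
Cyp2c29: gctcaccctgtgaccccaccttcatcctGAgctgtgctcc
Of the 10 Cyp2c genes measured on both diets, 3 carried AG, the dinucleotide that precedes an acceptor, at bases 29 and 30: Cyp2c40, Cyp2c67 and Cyp2c68.

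The 54-nt exon that precedes a short intron in 3 genes of the Cyp4f cluster on chromosome 17 is shown because that intron was retained in 2 of them. Capitals mark the bases that differ between the 3. The exon lies at chr17:32932629-32932682 (minus strand) in Cyp4f13, chr17:32692416-32692469 (plus strand) in Cyp4f15 and chr17:32911655-32911708 (minus strand) in Cyp4f14.
Cyp4f13: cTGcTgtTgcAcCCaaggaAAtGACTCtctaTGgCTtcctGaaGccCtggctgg
Cyp4f15: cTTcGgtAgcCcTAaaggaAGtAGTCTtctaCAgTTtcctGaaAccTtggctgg
Cyp4f14: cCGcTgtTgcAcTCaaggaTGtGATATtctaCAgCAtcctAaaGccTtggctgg
The 3 exons were identical at 33 of 54 positions.

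The splicing of the Cyp genes was nearly the same on the 2 diets. In all, 311 Cyp LSVs with 820 entries were measured on both diets, out of 26910 LSVs with 68110 entries in all genes. An entry was called different where its PSI differed by at least 0.2 and by more than the 2-sided 95% normal limit of the pooled posterior SD, called the 95% limit from here on. None of the 820 Cyp entries met this rule, and none reached a difference of 0.2 without the limit on the SD. Among all genes, 0.417% of entries, 0.624% of LSVs and 2.31% of genes were called. That share is so small that 0 of 820 is close to the background. At a difference of at least 0.1, 4 Cyp entries were called, 1 each in Cyp4a32, Cyp4f14, Cyp2d37-ps and Cyp2r1, against 2.87% of all entries (3.11% without the limit on the SD).

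The same junction or intron led in all 311 Cyp LSVs on both diets, against 99.1% of LSVs in all genes. In 229 Cyp LSVs (73.6%) the leading entry had a PSI of at least 0.95 on both diets, against 66.8% in all genes. Where splicing was mixed, with a PSI of 0.1 to 0.9 on both diets, the 61 Cyp entries differed by a median of 0.0226 and a 90th percentile of 0.088. The 7126 such entries of all genes differed by 0.0362 and 0.116. The Cyp entries also rested on more reads: their median effective read number was 340 on LFD and 287 on HFD, against 220 and 169. The part of read depth in the smaller differences was not tested.

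**Figure D1:**
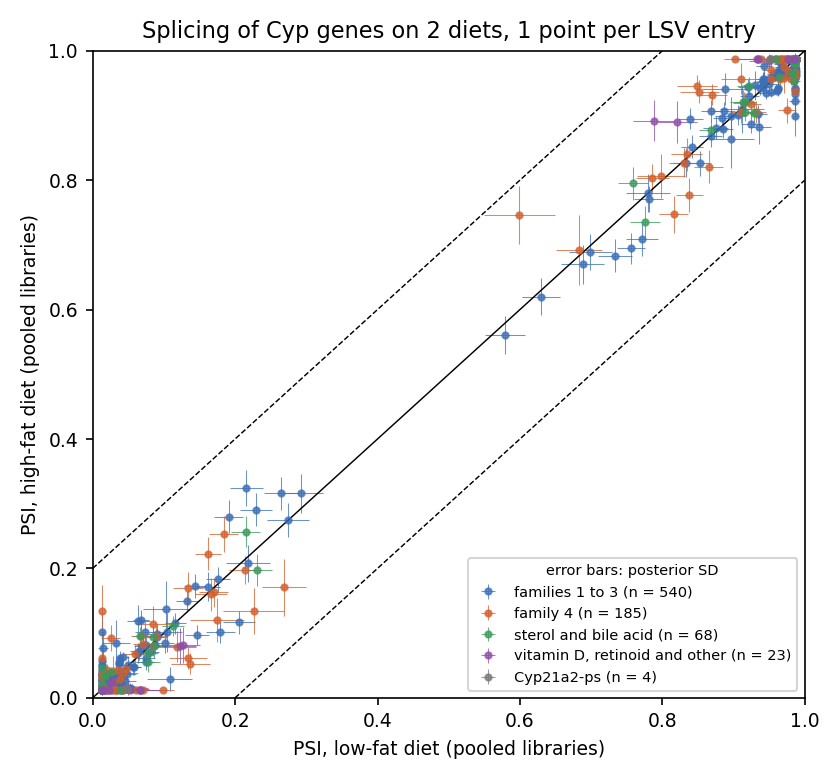
PSI on the low-fat diet (horizontal axis) against the high-fat diet (vertical axis) for the 820 entries of Cyp LSVs measured on both diets, coloured by role group, with posterior SDs as error bars. The solid line marks equal values and the dashed lines a difference of 0.2, which no point reaches; the point farthest from the diagonal is the Cyp4a32 junction at 0.599 and 0.746.

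**Figure D2:**
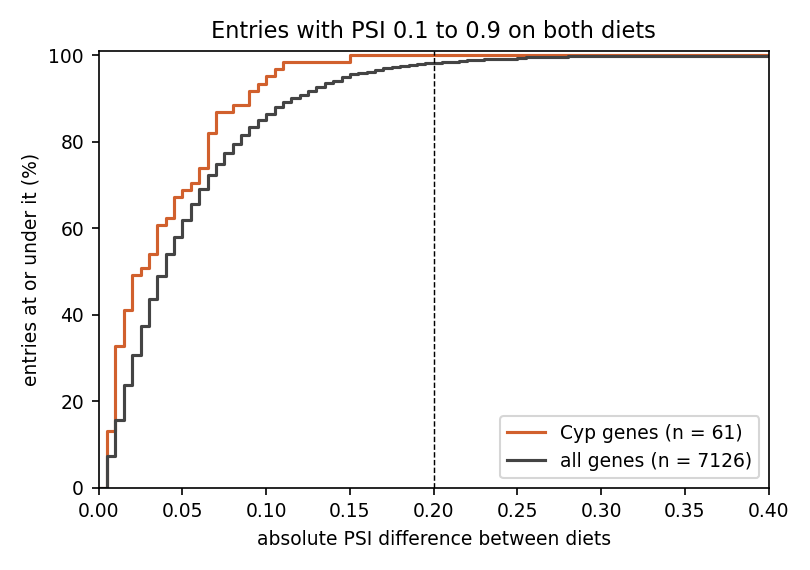
Share of entries (vertical axis, percent) at or under each absolute PSI difference between diets (horizontal axis), for entries with a PSI of 0.1 to 0.9 on both diets. The 61 Cyp entries end at 0.148, and the dashed line marks 0.2.

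By role, the 540 entries of the 30 drug and steroid genes of families 1 to 3 measured on both diets differed by at most 0.107, and 1 reached 0.1. The 185 entries of the 9 family 4 genes differed by at most 0.148, and 2 reached 0.1. The 68 entries of the 4 sterol and bile acid genes differed by at most 0.0421. The 23 entries of Cyp2r1, Cyp26a1 and Cyp20a1 differed by at most 0.104. Some genes showed a single splicing pattern throughout. All 28 entries of Cyp2e1, the ethanol-oxidising P450, were equal on the 2 diets to the precision of the tables, and the 13 entries of Cyp1a2 differed by at most 1.93e-06. Both genes were at the floor or ceiling at every entry.

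Over all sizes of difference, 68 Cyp entries (8.29%) lay beyond the 95% limit, against 10.1% of all entries. Differences of at least 0.05 numbered 47 of 820 entries, in 15 genes, against 10.7% of all entries. Of these, 29 were beyond the 95% limit, against 7.1% of all entries. A check within the data comes from the 232 junctions and introns measured in 2 LSVs. Of 19 that differed by at least 0.05 in either LSV, 18 had the same sign in both, and 9 reached 0.05 in both. The exception was the junction of exons 4 and 5 of Cyp2d22, at 0.0561 in one LSV and -0.00579 in the other. The 2 LSVs share reads and libraries, so their values are not independent. Some of the 19 are also complementary entries of the same LSV, such as intron 7 of Cyp4a32 and the junction that removes it. The separate events are thus fewer than 19, and those that reached 0.05 in both fewer than 9.

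Family 4, the fatty acid hydroxylases, held the largest differences, and most of them lay in the Cyp4a cluster on chromosome 4. In Cyp4a32 the junction of exons 4 and 5 (chr4:115606772-115609627) stood at a PSI of 0.599 ± 0.0499 on LFD against 0.746 ± 0.045 on HFD, a difference of 0.148 or 2.2 pooled SDs. The 2 other junctions to exon 5 were lower on HFD. The one that skips the 128-nt exon 4 went from 0.226 ± 0.0428 to 0.134 ± 0.0352 and the one that skips exons 2 to 4 from 0.175 ± 0.0381 to 0.12 ± 0.0342, neither beyond the 95% limit.

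Other genes of the cluster, Cyp4a12a and Cyp4a14, had a minor form on LFD that stood at the floor on HFD. In Cyp4a12a, skipping of exon 2 had PSIs of 0.0981 ± 0.0158 (LFD) and 0.0126 ± 0.00135 (HFD) in the LSV at exon 1, and 0.0394 ± 0.00692 and 0.0125 in the LSV at exon 3. The first difference, -0.0855, was 5.39 pooled SDs, the most of any difference of at least 0.05 among the Cyp genes. Because the HFD value lies near the floor, where the SD is small, the pooled SD is nearly that of LFD alone. The junction is not in the annotation, and the exon has 142 nt, not a whole number of codons. The exon lies at chr4:115300702-115300843 (plus strand), within the coding sequence, and is shown because its 142 bases are the same in the neighbouring copy Cyp4a12b, so that reads inside it cannot be told apart.
Cyp4a12a: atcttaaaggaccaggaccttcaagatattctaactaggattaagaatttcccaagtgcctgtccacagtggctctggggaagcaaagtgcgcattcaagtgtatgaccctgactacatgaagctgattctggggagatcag
The authors' deposited table of JUM events (JUM is a second splicing method, run on the same libraries) lists this cassette exon at 0.0241 (HFD minus LFD, adjusted p = 0.0255). Its label does not say whether this change is of inclusion or of skipping, so its sign cannot be set against the skipping PSIs above. In Cyp4a12a and Cyp4a12b, 48.9% and 49.4% of all 50-nt windows of the transcript also occur in the other gene.

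Retained introns in family 4 were short and recurred at matching positions of related genes. This was not particular to family 4. The intron after the 177-nt exon reached 0.0626 in Cyp2d10 (183 nt) and 0.0869 in Cyp2d22 (184 nt), but only 0.0136 in Cyp2d9 (183 nt). Of 39 Cyp introns measured, 16 in 9 genes had a PSI of at least 0.05, with a median length of 88 nt, and 8 of the 16 were in family 4. In Cyp4a14 intron 7 (83 nt, chr4:115491478-115491560) had a PSI of 0.0658 ± 0.0135 and 0.0606 ± 0.0133 in its 2 LSVs on LFD, and 0.0125 in both on HFD. The matching intron of Cyp4a32 (88 nt, chr4:115611129-115611216), between exons of the same 107 and 191 nt, went from 0.137 ± 0.0271 to 0.0529 ± 0.0164 and from 0.134 ± 0.0267 to 0.0614 ± 0.0173. In both genes the intron was lower on HFD beyond the 95% limit in each LSV, and the 2 diets did not overlap within 1 posterior SD. For Cyp4a14, at the floor on HFD, this limit rests nearly on the LFD SD alone. No LSV with this intron was listed for Cyp4a10, Cyp4a12a or Cyp4a12b.

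In the Cyp4f cluster retention reached like levels, and most of its differences between diets lay within the 95% limit. The 88-nt intron after the 54-nt exon shown above had PSIs of 0.166 ± 0.0222 and 0.134 ± 0.0206 on LFD and 0.16 ± 0.0258 and 0.169 ± 0.0251 on HFD in Cyp4f13. In Cyp4f15 the values were 0.214 ± 0.0228 and 0.17 ± 0.0205 on LFD, and 0.197 ± 0.0215 and 0.163 ± 0.0222 on HFD. In Cyp4f14, the leukotriene hydroxylase gene, the intron of the same length and position stood at 0.0125 in both LSVs and on both diets. Another 88-nt intron of Cyp4f15, intron 10 (chr17:32702038-32702125), was higher on HFD, at 0.223 ± 0.0257 against 0.162 ± 0.0187 in one LSV and 0.253 ± 0.0281 against 0.184 ± 0.02 in the other. These differences were 1.9 and 1.99 pooled SDs. Over the 77 intron entries of Cyp genes, 12 were higher on HFD by at least 0.02 and 13 lower. Of the 6848 intron entries in all genes, 21% were higher and 14.9% lower by that much. None of the Cyp intron entries met the rule, against 0.803% in all genes. For 77 entries, none is close to that share.

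**Figure D3:**
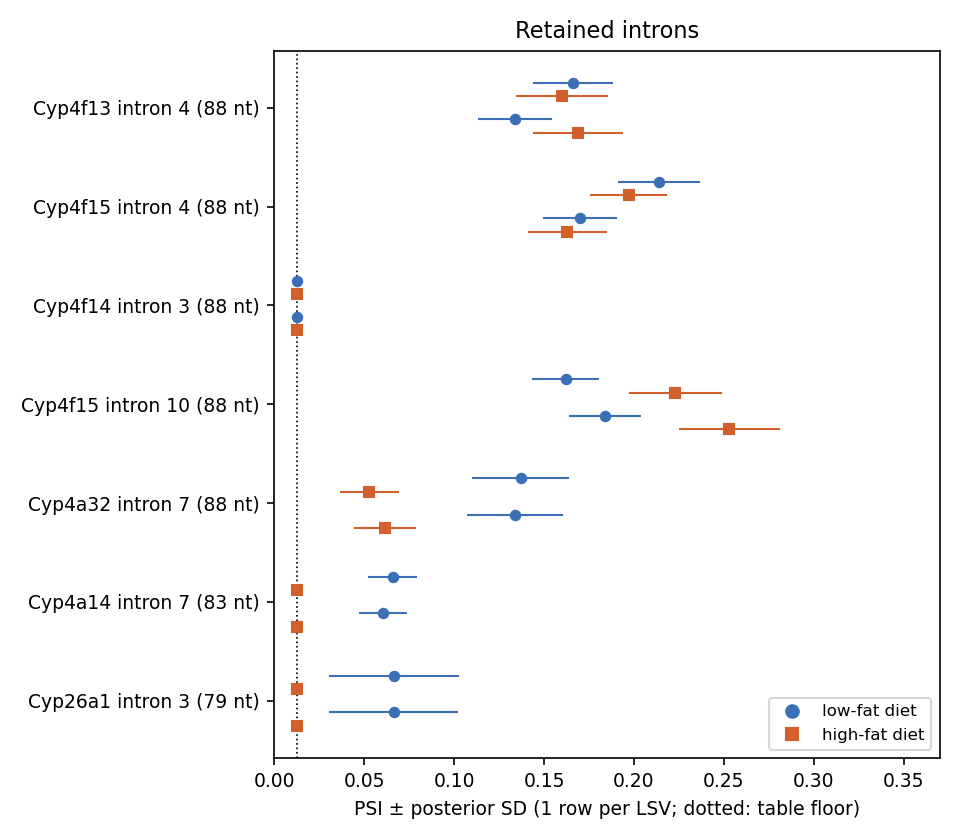
PSI of retained introns (horizontal axis, with posterior SD) on the low-fat diet (circles) and high-fat diet (squares), 1 row per LSV; the dotted line is the floor of 0.0125. The Cyp4f13 and Cyp4f15 introns 4 overlap between diets and the Cyp4f14 intron lies at the floor, while the Cyp4a32 and Cyp4a14 introns are lower on the high-fat diet.

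In Cyp4f14 the first intron had a pair of acceptors 3 nt apart. The exon start is shown with the 3 nt that the second acceptor leaves out in capitals (chr17:32916860-32916889, minus strand, not all of it coding).
Cyp4f14: CAGgatgtcacagctgagcctgtcctggtt
From the same donor, the acceptor that keeps these bases led on both diets, with PSIs of 0.683 ± 0.0327 (LFD) and 0.692 ± 0.0547 (HFD). The one that drops them had 0.269 ± 0.0312 and 0.171 ± 0.0442, a difference within the 95% limit. An unannotated junction from a donor farther upstream (chr17:32916889-32917332) was at the floor on LFD and at 0.134 ± 0.0405 on HFD, a difference of 0.121 or 2.99 pooled SDs. In Cyp4f13, the junction of exon 4 with an exon inside intron 3, annotated in a transcript marked for nonsense-mediated decay, went from 0.0254 ± 0.013 to 0.0925 ± 0.0195. The junction on the other side of that exon, with exon 3, had 0.0125 and 0.0126 ± 0.00169, so the higher value was seen at 1 end of the exon alone.

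Skipping of exon 5 was shared by several genes of family 2 that oxidise drugs, steroids and arachidonic acid, and it differed little between diets. Of 23 family 2 genes with an exon of 177 nt, 6 had a junction that skips it, and in 4 its PSI reached 0.05. In Cyp2d10, a member of the drug-oxidising 2D group, skipping had PSIs of 0.274 ± 0.0294 and 0.293 ± 0.03 on LFD and 0.275 ± 0.0261 and 0.316 ± 0.0299 on HFD. In Cyp2c54 it had 0.0644 ± 0.0117 and 0.0729 ± 0.0139 on LFD, and 0.072 ± 0.013 and 0.101 ± 0.0167 on HFD. Cyp2d10 thus skipped the exon several times as often as the others, on either diet. In Cyp2j5, an arachidonic acid epoxygenase, it was 0.0585 ± 0.0097 and 0.0567 ± 0.0108 on LFD, and 0.0469 ± 0.0121 and 0.0474 ± 0.0122 on HFD. In Cyp2c29 it was 0.0374 ± 0.00228 and 0.0163 ± 0.00895 on LFD, and 0.0548 ± 0.0121 and 0.0345 ± 0.00808 on HFD. All 8 differences between diets lay within the 95% limit. A rarer junction of Cyp2c54 that skips exons 5 to 7 together was lower on HFD beyond that limit, from 0.0415 ± 0.00954 to 0.0127 ± 0.002 in one LSV and from 0.0519 ± 0.0133 to 0.0153 ± 0.00793 in the other. The Cyp2d10 junction is in the annotation and the other 3 are not. Cyp2c50 and Cyp2d22 had the junction at the floor of 0.0125 on both diets.

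Other exons were skipped in single genes. In Cyp3a25, of the steroid- and drug-oxidising 3A group, skipping of exon 6 had PSIs of 0.229 ± 0.0224 and 0.162 ± 0.0174 on LFD, and 0.291 ± 0.0255 and 0.172 ± 0.0221 on HFD. The junction is annotated in a transcript marked for nonsense-mediated decay. The exon has 89 nt and lies at chr5:145993273-145993361 (minus strand), within the coding sequence. It is shown because its skipping reached the highest PSI among exons whose length is not a multiple of 3.
Cyp3a25: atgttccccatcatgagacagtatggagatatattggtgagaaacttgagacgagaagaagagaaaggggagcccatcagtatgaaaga
In Cyp2d22, skipping of the 142-nt exon 7 had 0.144 ± 0.0157 and 0.132 ± 0.0156 on LFD, and 0.173 ± 0.019 and 0.149 ± 0.0165 on HFD. In Cyp2d9, skipping of the 142-nt exon 6, annotated for nonsense-mediated decay, had 0.0809 ± 0.0118 and 0.0746 ± 0.0125 on LFD, and 0.0715 ± 0.0124 and 0.061 ± 0.00897 on HFD. Over all Cyp genes, 32 skipping entries in 16 genes reached a PSI of 0.05, 17 of them higher and 15 lower on HFD.

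**Figure D4:**
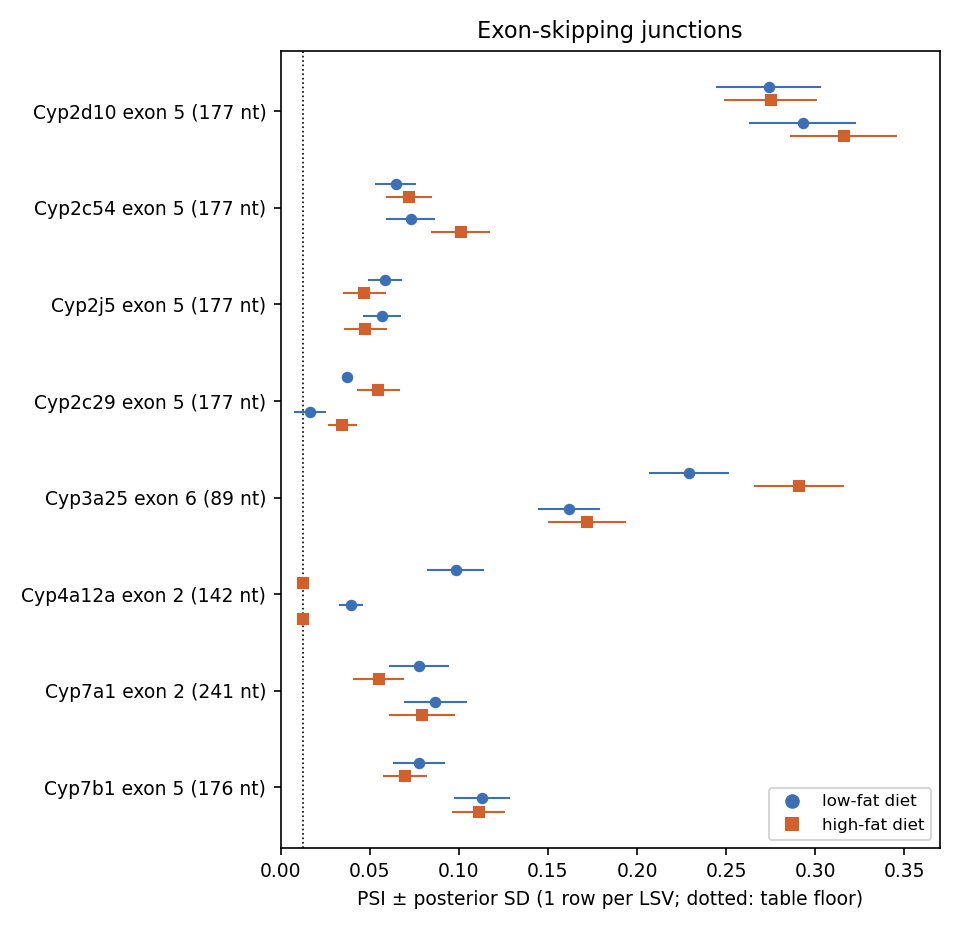
PSI of exon-skipping junctions (horizontal axis, with posterior SD) on the low-fat diet (circles) and high-fat diet (squares), 1 row per LSV; the dotted line is the floor of 0.0125. Cyp2d10 exon 5 is skipped most, at 0.274 to 0.316, and the Cyp4a12a values reach the floor on the high-fat diet.

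Among the drug and steroid genes of families 1 to 3, with Cyp2r1 grouped under vitamin D, the largest differences were in Cyp2d37-ps and Cyp2j9. Cyp2d37-ps is named as a pseudogene. Its intron 5 (112 nt) was the leading entry of the LSV, at 0.579 ± 0.0285 on LFD and 0.56 ± 0.0294 on HFD, and at 0.63 ± 0.0267 and 0.62 ± 0.0288 in its second LSV. Of its spliced forms, the shorter exon 5 went from 0.216 ± 0.0226 to 0.324 ± 0.0274 and the full exon 5 from 0.205 ± 0.0225 to 0.117 ± 0.0178, 3.01 and -3.07 pooled SDs. In the second LSV they went from 0.191 ± 0.0207 to 0.28 ± 0.0259 and from 0.179 ± 0.0204 to 0.101 ± 0.0162. The authors' deposited table lists the same pair of JUM junctions at 0.23 and -0.23 in opposite directions (adjusted p = 0.126). For an acceptor pair of the gene, the authors' deposited table gives 0.103 and -0.103 (adjusted p = 0.155). In Cyp2j9 an unannotated donor 223 nt beyond exon 2 went from 0.0128 ± 0.00293 to 0.101 ± 0.0312, and an unannotated donor 98 nt beyond exon 6 from 0.108 ± 0.0321 to 0.0294 ± 0.0181. In Cyp3a59, an unannotated acceptor inside intron 2 went from 0.0144 ± 0.00756 to 0.0767 ± 0.0273, or 2.2 pooled SDs.

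In Cyp2d22 the donor of the first, noncoding exon used most is not in the annotation. It lies 6 nt before the annotated donor. Its junction with the start of exon 2 had PSIs of 0.756 ± 0.0197 (LFD) and 0.695 ± 0.0241 (HFD), within the 95% limit, and its junction with another, unannotated acceptor had 0.0677 ± 0.0113 and 0.121 ± 0.0155, a difference of 2.8 pooled SDs. The annotated donor had 0.176 ± 0.0174 and 0.183 ± 0.0188. Most unannotated junctions of Cyp genes were rare: 37 of 348 (10.6%) reached a PSI of 0.05, against 16.5% of unannotated junctions in all genes and 84.2% of the 393 annotated Cyp junctions.

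The exon 4 acceptors of Cyp2c68 gave the smallest listed adjusted p of any pair of sites in a Cyp gene, and Cyp2c67 has the same acceptors. The acceptor after bases 29 and 30 was used at PSIs of 0.101 ± 0.0132 (LFD) and 0.0853 ± 0.0162 (HFD) in Cyp2c68, and at 0.0377 ± 0.00344 and 0.0293 ± 0.0123 in Cyp2c67. The usual acceptor of Cyp2c68 had 0.868 ± 0.0139 and 0.907 ± 0.0166. The authors' deposited table lists the 2 junctions of Cyp2c68 at -0.0772 and 0.0772 (JUM, adjusted p = 0.00109). For Cyp2c67 the authors' deposited table lists -0.0164 and 0.0164 (adjusted p = 0.192). The exon of 161 nt is identical at 159 positions in the 2 genes, and 43.3% of the 50-nt windows of Cyp2c68 and 52.8% of those of Cyp2c67 occur in another gene. No LSV with this acceptor was listed for Cyp2c40, whose first 40 nt equal those of Cyp2c68. Of the 50-nt windows of Cyp2c40, 72.1% occur in another gene, so its reads are hard to assign.

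In all, the authors' deposited table holds 11 JUM events in 9 Cyp genes, of which 3 had an adjusted p under 0.05. Over all genes, 83 of the 470 events in the authors' deposited table (17.7%) were under that limit. Only events with an unadjusted p under 0.05 are listed there, so these counts are not shares of all events tested. The third Cyp event under the limit, besides Cyp2c68 and Cyp4a12a, was a composite event over exons 3 to 7 of Cyp2d10, including the skipping of exon 5. The authors' deposited table gives it an adjusted p of 0.000264 and changes between -0.0133 and 0.0119 in its 14 junctions. The other events had an adjusted p of 0.0929 or more in the authors' deposited table. They include a cassette exon of Cyp3a25 between exons 12 and 13, listed at 0.0721 in the authors' deposited table. In the PSI tables the 2 junctions of this exon were used unequally: the one to exon 13 had 0.265 ± 0.0237 on LFD and 0.316 ± 0.0256 on HFD, and the one to exon 12 had 0.0219 ± 0.0121 and 0.013 ± 0.00337. The Cyp2j9 event with changes of -0.263 and 0.263 (adjusted p = 0.387) in the authors' deposited table matches no entry of the PSI tables. The remaining events had listed changes of at most 0.0139 in the authors' deposited table: a donor pair of Cyp2c23, an intron of Cyp2d10 and a cassette exon of Cyp2j5. Cyp2c23 carries the older name Cyp2c44 in the PSI tables, where an unannotated donor 21 nt beyond exon 6 had 0.0146 ± 0.00696 and 0.0417 ± 0.00943 and the usual one 0.985 ± 0.00731 and 0.954 ± 0.012.

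A table of PSI differences made in a separate run lists 1 Cyp LSV among the 124 LSVs of the authors' deposited table. Of the LSVs of all genes measured on both diets, 0.36% are in it. None of the 311 Cyp LSVs measured on both is in it, which is close to that small share. Of the genes with such LSVs, 1.72% are in it, Cyp3a25 among them. The Cyp LSV belongs to Cyp3a25 and starts from a short stretch inside intron 4 that is no annotated exon. In the authors' deposited table its junction with exon 4 (chr5:145996211-145998487) fell from 0.99 to 0.579 and the intron next to it rose from 0.01 to 0.421. The LSV is in neither PSI table, but the junction is, as an entry of the LSV at exon 4. There it had 0.0193 ± 0.0111 on LFD and 0.0232 ± 0.0124 on HFD, while the annotated junction of exons 4 and 5 had 0.963 ± 0.00386 and 0.964 ± 0.00615. The listed change thus concerns a site that took about 2% of the junction reads of exon 4 on either diet.

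The genes of bile acid and sterol metabolism differed little. Skipping of the 241-nt exon 2 of Cyp7a1, the rate-limiting enzyme of bile acid synthesis, had 0.0776 ± 0.0169 and 0.0868 ± 0.0179 on LFD, and 0.055 ± 0.0144 and 0.0794 ± 0.0186 on HFD. Skipping of the 176-nt exon 5 of Cyp7b1, an oxysterol hydroxylase, had 0.0777 ± 0.0145 and 0.113 ± 0.0157 on LFD, and 0.0697 ± 0.0121 and 0.111 ± 0.0149 on HFD. In Cyp27a1, the mitochondrial sterol hydroxylase, a 107-nt intron segment between exons 4 and 5 went from 0.231 ± 0.0203 to 0.197 ± 0.0248 in one LSV and from 0.215 ± 0.0201 to 0.257 ± 0.0242 in the other. Both differences lay within the 95% limit. All 8 entries of Cyp51, the lanosterol demethylase, stood at the floor or ceiling on both diets.

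In Cyp2r1, which hydroxylates vitamin D, the junction of exons 2 and 3 went from 0.788 ± 0.0288 to 0.892 ± 0.0314 in one LSV (2.44 pooled SDs) and from 0.821 ± 0.0274 to 0.89 ± 0.0318 in the other (1.64). An annotated acceptor 543 nt into exon 3 went from 0.122 ± 0.0232 to 0.08 ± 0.0277 in one LSV and from 0.127 ± 0.024 to 0.0818 ± 0.028 in the other, and skipping of exon 2 from 0.0528 ± 0.0164 to 0.0126 ± 0.00195. In Cyp26a1, a retinoic acid hydroxylase, intron 3 (79 nt) had 0.0665 ± 0.0362 and 0.0663 ± 0.0361 on LFD, and 0.0126 ± 0.00124 and 0.0126 ± 0.00126 on HFD, within the 95% limit. In Cyp20a1, a P450 with no settled substrate, skipping of exon 3 had 0.0498 ± 0.0278 and 0.0159 ± 0.0108.

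Few Cyp LSVs were present on 1 diet only. On LFD 13 were listed that were not on HFD, and on HFD 3 that were not on LFD, all 3 in Cyp2b9. Of the Cyp LSVs on LFD, 96% were also on HFD, against 83.4% of the LSVs of all genes. The genes Cyp17a1, Cyp4b1, Cyp4f17 and Cyp3a16 had LSVs on LFD alone. Whether these LSVs lacked reads or lacked a second junction on the other diet was not tested.

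Junctions that join neighbouring Cyp copies numbered 2 in the PSI tables, and neither had both ends at annotated exon ends. The first joins Cyp3a41b to Cyp3a16 over 122681 bp (chr5:145436476-145559158) and was listed on LFD, with a PSI of 0.809 ± 0.0364, against 0.191 for the junction within Cyp3a16. It leaves Cyp3a41b after base 60 of its last exon, exon 13, and enters Cyp3a16 at base 61 of its own exon 13. The joined sequence is shown with the 30 nt of Cyp3a41b in lower case and the 30 nt of Cyp3a16 in capitals.
Cyp3a41b joined to Cyp3a16: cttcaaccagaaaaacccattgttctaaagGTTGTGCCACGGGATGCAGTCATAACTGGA
Aligned without a gap, the transcript of Cyp3a16 alone matches 59 of these 60 bases and that of Cyp3a41b matches 57. The second joins Cyp2d10 to Cyp2d11 over 13688 bp (chr15:82390180-82403869) from base 38 of exon 7 to base 5 of exon 7, at 0.0127 ± 0.00248 (LFD) and 0.0424 ± 0.02 (HFD). The 2 exons are identical at 95.2% of their 188 bases. The 60 bases joined by this junction match the transcript of either gene alone at 40 positions without a gap. Of the 47 Cyp genes on both diets, 21 shared more than 10% of their 50-nt windows with another gene and 10 shared none.

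The median absolute PSI difference was 0.00663 over the entries of the electron donors. It was 0.00103 over those of haem synthesis and breakdown and 0.0109 over those of the regulators of Cyp genes. Over the Cyp entries it was 0.000148, and over all entries 0.00298. Of the Cyp entries, 79.8% had a PSI under 0.05 on both diets or over 0.95 on both, against 72.3% of all entries. Only small differences are possible there. Among entries with a PSI of 0.1 to 0.9 on both diets, the medians were 0.0226 for Cyp genes and 0.0362 for all genes. None of 8 measured electron donor genes (of 11 listed) and none of 11 measured genes of haem synthesis and breakdown (of 12) had an entry past the rule, against 2.31% of all genes. With so few genes, none is close to that share. At a difference of at least 0.1 beyond the 95% limit, 7 of the partner and regulator genes had an entry (Fdxr, Hmox2, Ppox, Nr1h4, Onecut1, Ppara and Nr1i3), against 13.4% of all genes. In Fdxr, the ferredoxin reductase, a junction went from 0.888 ± 0.0335 to 0.745 ± 0.0499. In Hmox2, a haem oxygenase, one went from 0.811 ± 0.0246 to 0.666 ± 0.0354. In Onecut1, a liver transcription factor, one went from 0.554 ± 0.0387 to 0.717 ± 0.0373. For Por, the reductase of microsomal P450s, an intron of 86 nt was at 0.0675 ± 0.0136 on LFD and 0.154 ± 0.0221 on HFD, under the limit of 0.2. The authors' deposited table lists JUM changes with an adjusted p under 0.05 for an intron of the ferredoxin gene Fdx1 (0.321, adjusted p = 0.0426) and for a donor pair of Cyb5r3, the cytochrome b5 reductase (0.0352 in opposite directions, adjusted p = 0.00624). In the PSI tables a Fdx1 junction with the same right end as that intron (chr9:51943649-51948577) had 0.937 ± 0.00966 on LFD and 0.896 ± 0.0156 on HFD. This junction has another left end and does not measure retention of that intron, so the sizes of these changes cannot be compared. Events in Por, Fech, Nr1h3 and Nr1i2 had an adjusted p from 0.0508 to 0.388 in the authors' deposited table. Of 14 measured regulators (of 18), Nr1i3, the receptor CAR that induces family 2 and 3 genes, was past the rule with 5 entries. Its 69-nt intron had 0.0125 on LFD and 0.41 ± 0.0335 on HFD.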

How the data were processed

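Reads were aligned with STAR after FastQC, build mm10, per the submitters' processing notes. No source used here gives the versions or settings of the splicing tools. The deposited PSI tables, with the columns and LSV format of MAJIQ, hold PSI fractions (0 to 1) and their posterior variance, pooled by the authors over 3 libraries per diet. The deposited table of differences holds PSI changes and their probability. The deposited JUM table holds p-values, adjusted p-values and changes, HFD minus LFD. No deposited file used here gives reads per library, so the depth is unknown. The effective read number, PSI(1−PSI)/variance − 1, stands in for it.

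LSVs were matched between diets by their identifier, and the rule (difference of at least 0.2 and more than the 2-sided 95% normal limit of the pooled posterior SD) ran over all genes. The rule was tried on simulated reads with shifts larger than 0.2 and no variation between mice. Entries with an LFD PSI near the floor or ceiling were left out of that trial. There is no p-value for the rule, since pooled values leave no replicates. Exons, coding regions and sequences came from GENCODE M21 (GRCm38, the same build). For each gene a coding transcript flagged as principal (APPRIS) in the annotation was taken. Among several such transcripts, or without a flag, the one with the longest coding sequence was used. Genes without a coding transcript, such as Cyp2d37-ps, used a noncoding one. For the copies Cyp3a16, Cyp3a41b and Cyp2d11 in the joined sequences, coding length alone decided. JUM events were matched by coordinates, whose right ends differ by up to 2 bases. Python 3.11 scripts with pandas were used. The sources used here do not say whether reads with several matches were kept, which bears on near-identical copies. Cyp2c44 in the PSI tables is Cyp2c23 in the JUM table, by its Ensembl identifier. The members and gene lists were chosen with earlier results of these data known. Named genes are those in the difference or JUM tables, up to 4 per role group with the largest differences (posterior SD under 0.05), the gene with most LSVs per role group, and partners past the rule or in those tables. An event of 1 partner gene is not reported here. Cyp2c29, Cyp2c40, Cyp2c50, Cyp2c54, Cyp2d9, Cyp2d11, Cyp2d22, Cyp4a10, Cyp4a12b, Cyp4a14, Cyp4f13, Cyp2e1, Cyp1a2, the partners named for differences of at least 0.1 and the genes present on 1 diet were chosen after their values were seen.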

Additional observations from a re-analysis of the deposited data

How the results depend on the processing

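No paired analysis was possible because the tables hold 1 pooled value per diet, and for the same reason no replicate could be left out. With a PSI difference of at least 0.1 in place of 0.2, 4 Cyp entries passed in place of 0, and 7 partner and regulator genes in place of 1. A difference of 0.3, the 99% in place of the 95% normal limit, no limit from the SD, a posterior SD under 0.05, each junction counted once and leaving out junctions between copies all gave 0 Cyp entries. Of the 1 Cyp LSV in the authors' deposited table of differences, 0 also differed by 0.2 in the PSI tables. All 11 listed Cyp JUM events, in place of 3, count without the limit on the adjusted p. Of the 2 junctions between copies, 0 joined annotated exon ends and 1 was in an LSV measured on both diets. The floor of 0.0125 limits the detection of rare forms.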
